A study of Mus musculus with 8 samples.

Results

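A list of 10 genes of cardiac calcium entry, release and removal were followed in the left and right heart fields of the mouse embryo. It held the 10 entries, of 48526 in the deposited count table, whose symbols were Cacna1c, Cacna1d, Cacna1g, Cacna1h, Cacna2d1, Cacna2d2, Cacnb2, Ryr2, Atp2a2 and Slc8a1. The list was chosen with its left against right values in view, in particular the higher right value of Cacna2d2 in all 4 embryos, so the left-right values of these genes are given as a description without a test. The study asked which genes differ between the sides of the heart field, the mesoderm behind the heart tube that supplies cells to its poles. The heart fields of 4 male embryos (L29-3, L43-5, L46-8 and L49-3), each Wild-type on the C57bl6/J strain and at stage E8.5f, were cut at the midline, which gave 4 left and 4 right libraries. Every library was made from a single, unpooled embryo, no embryo was treated, and no allele differed between the groups. The heart tube itself and the back were removed in the dissection, and carry-over of tube muscle was not tested.

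A heartbeat starts when voltage-gated calcium channels in the cell membrane open. The calcium that enters opens release channels of the sarcoplasmic reticulum, and relaxation follows when a pump returns calcium to that store and an exchanger carries it out of the cell. In the embryo, calcium transients begin in the differentiating cells of the cardiac crescent and early heart tube, where the sodium-calcium exchanger and L-type channels are known to act before the sarcoplasmic reticulum is mature.

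Promoter windows are shown for Slc8a1 and Ryr2, and a short stretch for Cacna2d2, which were low together in both libraries of embryo L49-3. Cacnb2, whose windows are not shown, and Atp2a2 were low there as well. RefSeq sequences (GRCm38.p6) were at hand for 7 of the 10 genes, in 11 windows of 250 bases before a transcription start. No window is given for Cacna1g, Cacna1h and Atp2a2. Each run is written 5′ to 3′ on the strand of its gene, and capitals mark a match to a binding motif of a cardiac transcription factor. The Slc8a1 window is chr17:81738388-81738637 on the minus strand, and its capitals mark the GATA factor motif AGATAA, 68 to 63 bases before the start. The Ryr2 window is chr13:12106946-12107195 on the minus strand and held none of the marked motifs. The Cacna2d2 stretch of 30 bases is chr9:107399768-107399797 on the plus strand. Its capitals mark the TEAD motif CATTCC on the opposite strand, 100 to 95 bases before the RefSeq start. The annotated gene begins farther upstream, at chr9:107399612, so this stretch lies inside the annotated gene and not before all of its transcripts.
Slc8a1 promoter: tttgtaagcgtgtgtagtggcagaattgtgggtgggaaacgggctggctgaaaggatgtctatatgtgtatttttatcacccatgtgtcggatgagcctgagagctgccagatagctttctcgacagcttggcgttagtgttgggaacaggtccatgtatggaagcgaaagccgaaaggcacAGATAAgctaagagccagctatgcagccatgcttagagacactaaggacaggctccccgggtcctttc
Ryr2 promoter: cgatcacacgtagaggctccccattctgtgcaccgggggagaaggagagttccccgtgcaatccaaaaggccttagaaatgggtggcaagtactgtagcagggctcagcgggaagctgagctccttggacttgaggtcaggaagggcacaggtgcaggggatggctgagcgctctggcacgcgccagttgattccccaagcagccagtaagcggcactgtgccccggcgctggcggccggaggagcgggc
Cacna2d2 upstream stretch: agagggagggagGGAATGagggagggagcg

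Motifs of 7 kinds were searched on both strands, and their background is the share of 32851 promoter windows of the same length that hold them. The GATA factor motif AGATAA was present in 9.99% of these windows and the TEAD motif in 12.6%. The motif AAGTG of NKX2-5, a homeodomain factor of the heart, was present in 40.7%. For GGTGTG, the motif of T-box factors, the share was 16.3%. The E-box CANNTG was found in 66.2%, the CArG box of serum response factor in 1.47% and the MEF2 box in 2.92%. E-boxes were not put in capitals, since most promoters hold at least 1, and an E-box can overlap an NKX2-5 match. Besides the matches shown, only the downstream window of Cacnb2 held a marked motif, with 3 NKX2-5 matches. A match is a run of letters and not a bound site, and the absence of a match says only that these letters are not in the window.

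The total count of a library ranged from 1147446 to 3520753 and was lowest in the libraries of L49-3. Of the 9744 genes tested, 9 were of the list: genes had to reach a normalized read count of 20 in at least 4 of 8 libraries, and Cacna1h reached it in none. Of 18 cardiomyocyte markers, such as Actc1 (cardiac actin, mean normalized read count 846), Myh6 (785) and Ttn (615), 14 had a mean of at least 20, while Nppa, a gene of working chamber muscle, had a mean of 0.194. The summed cardiomyocyte markers differed widely between the sides of an embryo, with log2 ratios of left over right of 0.10 for L29-3, -0.50 for L43-5, 0.85 for L46-8 and -1.68 for L49-3. The sum ranged from 2738.4 to 7758.1 in the 6 libraries of L29-3, L43-5 and L46-8, and was 972 in the left and 3119.3 in the right library of L49-3. These markers are present in the libraries together with those of the second heart field (sums 690 to 1088.2), and in such bulk samples fewer cells of a type and less RNA per cell cannot be told apart.

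The pore-forming subunits of the L-type channel carry the main calcium current of heart muscle. Cacna1c, the principal L-type pore subunit of the working myocardium, had normalized read counts in left and right libraries of 79.4 and 64.4 for L29-3, 39.1 and 52.8 for L43-5, 53.7 and 20.3 for L46-8, and 48.0 and 28.3 for L49-3. In 3 of 4 embryos the left library had more reads, and the groups overlapped. The fitted log2 fold change, left minus right, was 0.35 ± 0.25 (SE, n = 4 embryos).

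Cacna1d, the L-type pore subunit best known from pacemaker cells and the atria, had counts of 77.0 and 59.4 for L29-3, 56.7 and 47.0 for L43-5, 74.9 and 19.0 for L46-8, and 13.9 and 24.9 for L49-3. L46-8 stood apart with a log2 ratio of 1.92, whereas L49-3 went the other way with -0.81, and the groups overlapped. Its fitted log2 fold change of 0.55 ± 0.285 (SE) was the most left-sided of the 9 tested genes. Exons of Cacna1d share 589 bases with Chdh on the opposite strand, but Chdh itself had only 23 counts over all 8 libraries.

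T-type channels open near the resting potential and are prominent in embryonic myocardium and in pacemaker tissue. Cacna1g, a T-type pore subunit, had counts in left and right libraries of 62.4 and 29.7 for L29-3, 35.2 and 63.0 for L43-5, 45.6 and 34.3 for L46-8, and 57.3 and 48.2 for L49-3. Its log2 ratio of left over right went from 1.05 for L29-3 to -0.82 for L43-5, with a fitted value of 0.13 ± 0.268 (SE). With each embryo left out in turn this value ranged from -0.16 to 0.59, so leaving out a single embryo could turn its direction. Cacna1h, the other T-type pore subunit of the heart, was at 12.2 and 12.4 for L29-3, 4.56 and 10.7 for L43-5, 4.88 and 8.88 for L46-8, and 15.5 and 11.6 for L49-3. These values lie below the count of 20 in all 8 libraries, where a few reads change a ratio.

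The auxiliary subunits carry the pore to the membrane and tune its gating. Cacna2d2 (GRCm38 chr9:107399612-107529343, plus strand), an alpha2delta subunit, had normalized read counts in left and right libraries of 89.2 and 155 for L29-3, 48.2 and 90.2 for L43-5, 74.1 and 86.3 for L46-8, and 17.0 and 26.6 for L49-3. The right library was higher in every embryo, although the left and right values overlapped across embryos because the embryos themselves were far apart. The log2 ratio of left over right was -0.78, -0.89, -0.22 and -0.62 for L29-3, L43-5, L46-8 and L49-3, and the fitted log2 fold change was -0.66 ± 0.155 (SE), which is 1.58-fold higher on the right. With each embryo left out in turn it stayed between -0.82 and -0.54. Cacna2d2 was the only gene of the list with the same direction in all 4 embryos, a property that 12.4% of all tested genes share and that was part of how the list was chosen.

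Measured against the summed cardiomyocyte markers, the picture for Cacna2d2 was the same in 3 embryos and turned in the other. Its normalized read count was 1.15% of the marker sum in the left and 2.14% in the right library of L29-3, 1.1% and 1.44% for L43-5, and 1.5% and 3.15% for L46-8. In L49-3 it was 1.75% in the left and 0.852% in the right library. In that embryo the marker sum itself was lower on the left by a log2 ratio of -1.68, and its part in the ratio was not tested. Summed neural tube markers had log2 ratios of 0.35, -0.66, -1.45 and -0.42 for the same order of embryos, higher on the right in 3 of 4 as well, and their part was not tested either. Exons of Cacna2d2 share 82 bases with Gm17141 on the opposite strand, which had a count of 0 in all libraries.

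Cacna2d1, the alpha2delta subunit of adult ventricular muscle, was at 14.6 and 21.0 for L29-3, 31.3 and 24.0 for L43-5, 23.6 and 12.7 for L46-8, and 17.0 and 16.6 for L49-3. It reached a count of 20 in 4 of 8 libraries, the minimum for testing, and its fitted log2 fold change was 0.23 ± 0.282 (SE). Cacnb2, the main beta subunit of the cardiac L-type channel, was at 30.0 and 35.9 for L29-3, 35.2 and 23.5 for L43-5, 28.5 and 33.0 for L46-8, and 17.0 and 18.3 for L49-3. The left mean of Cacnb2 was 27.7 ± 7.66 (SD, n = 4) and the right mean 27.7 ± 8.2.

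**Figure D1:**
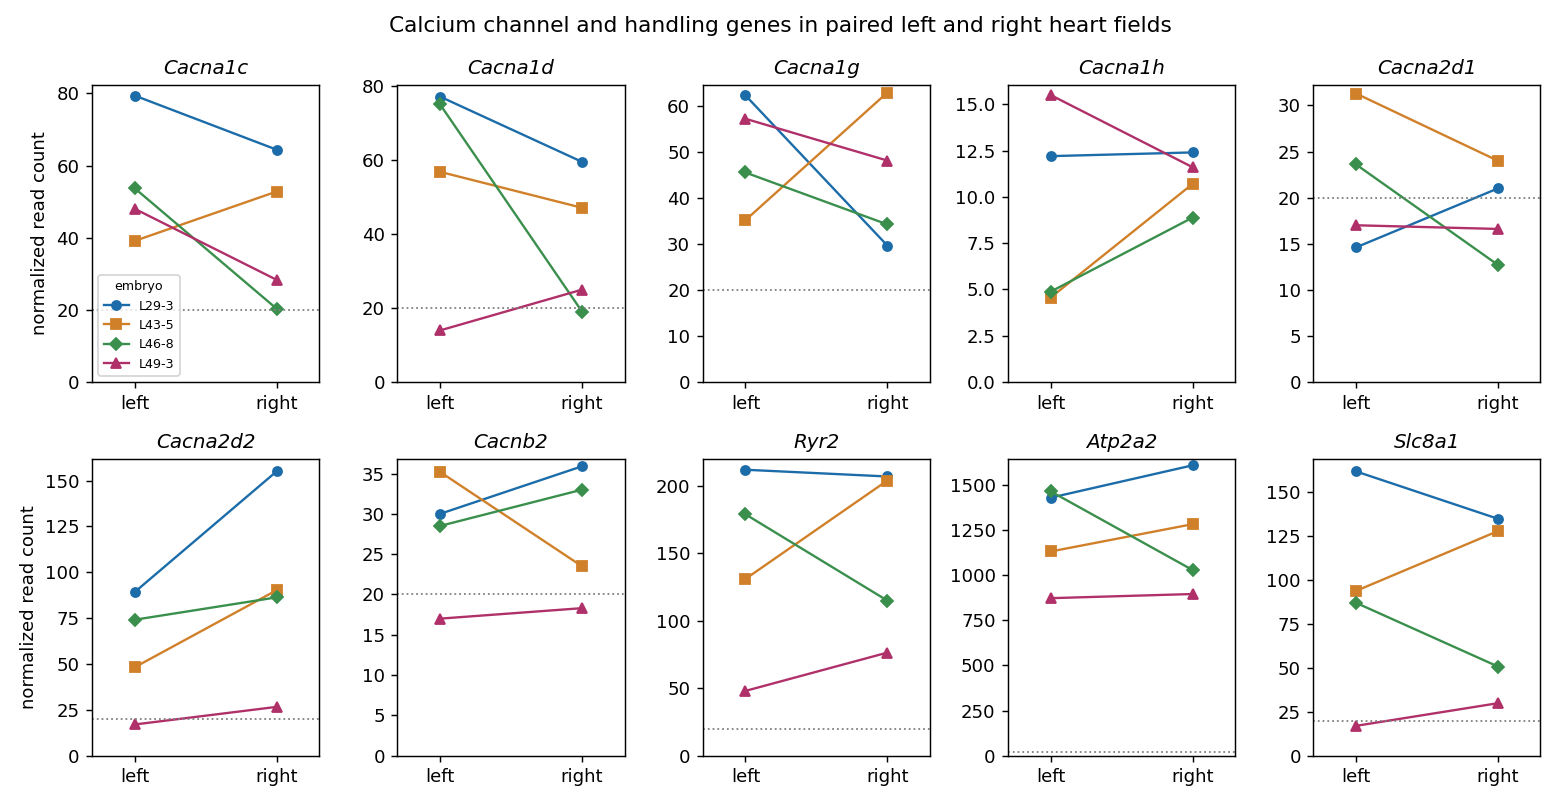
Normalized read counts (DESeq2 size factors, vertical axis from 0, with its own scale in each panel) of the 10 genes in the left and right heart field, with a line for each embryo and a dotted line at a count of 20. All 4 lines of Cacna2d2 rise to the right, those of the other genes cross or diverge, and L49-3 is lowest on both sides for Cacna2d2, Cacnb2, Ryr2, Atp2a2 and Slc8a1.

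Release from the sarcoplasmic reticulum runs through the ryanodine receptor Ryr2 (GRCm38 chr13:11553102-12106945, minus strand). It had counts in left and right libraries of 212 and 207 for L29-3, 131 and 204 for L43-5, 179 and 115 for L46-8, and 48.0 and 76.4 for L49-3. The sides were nearly level for L29-3 and went opposite ways for L43-5 and L46-8, with log2 ratios of -0.63 and 0.62. The fitted log2 fold change was -0.12 ± 0.18 (SE).

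Atp2a2 (GRCm38 chr5:122453513-122502225, minus strand) encodes the SERCA2 pump that refills the store. It was by far the most abundant gene of the list, with counts of 1430 and 1609.4 for L29-3, 1131.8 and 1283.3 for L43-5, 1465 and 1029.1 for L46-8, and 873 and 896 for L49-3. The left mean was 1225 ± 278 (SD, n = 4) and the right mean 1204.4 ± 314, with a fitted log2 fold change of 0.02 ± 0.0991 (SE). Its counts were the highest of the list and its standard error the smallest. A stretch of 362 bases of Atp2a2 is near-identical to Gm30970, which is not used here, so the split of reads there is uncertain.

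Slc8a1 (GRCm38 chr17:81373105-81738377, minus strand), the sodium-calcium exchanger of the plasma membrane, had counts of 162 and 135 for L29-3, 93.9 and 128 for L43-5, 87.1 and 50.8 for L46-8, and 17.0 and 29.9 for L49-3. The left library was higher for L29-3 and L46-8 and the right in the other 2 embryos. The fitted log2 fold change was 0.04 ± 0.195 (SE), and its sign changed when embryos were left out (-0.17 to 0.31). The differences between embryos were far larger than those between sides, with embryo means from 149 for L29-3 to 23.5 for L49-3.

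Across the list, 9 of 10 genes changed direction between embryos. In L46-8, 7 of 10 genes were higher on the left, with a median log2 ratio of 0.56, and the summed cardiomyocyte markers had a log2 ratio of 0.85. In L43-5, 7 of 10 were higher on the right, with a median of -0.44 beside a marker ratio of -0.50. In L29-3 the genes were split 5 to 5 with a median of 0.01 beside a marker ratio of 0.10, while in L49-3 6 of 10 were higher on the right with a median of -0.08 beside a marker ratio of -1.68. The part of the amount of muscle in these ratios was not tested.

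**Figure D2:**
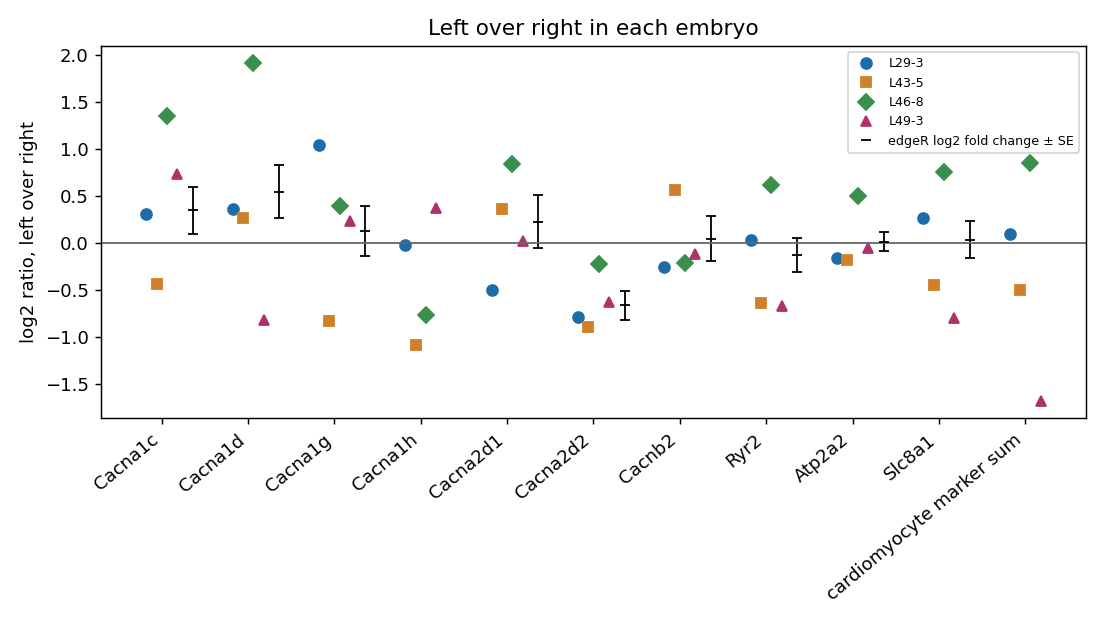
Log2 ratio of left over right (CPM plus 0.5) in each embryo for the 10 genes, and for the summed normalized read counts of 18 cardiomyocyte markers, with the edgeR log2 fold change ± SE in black for the 9 tested genes. Only the 4 points of Cacna2d2 lie on the same side of 0, from -0.89 to -0.22, and the L46-8 points of Cacna1c and Cacna1d lie farthest to the left-sided end, at 1.36 and 1.92.

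The study listed genes with a fold change of at least 1.2 and unadjusted p of at most 0.05 in limma-voom, DESeq2 or edgeR. With these thresholds in edgeR alone, 1 of the 9 tested genes, Cacna2d2, passed, against 297 of 9744 genes (3.05%). Since the list was selected on this contrast, nothing is read from that count. After Benjamini-Hochberg adjustment over all tested genes, 0 of 9 had an adjusted p under 0.05 in edgeR, DESeq2 or limma-voom. Over all 9744 genes, 1 (0.0103%) passed in edgeR, 2 in DESeq2 and 1 in limma-voom. At an unadjusted p under 0.05 each tool had 1 of 9, against 425 of 9744 genes in edgeR, 65 in DESeq2 and 457 in limma-voom. Without the embryo as a block, 0 of the 9 passed the thresholds, against 233 of 9744 genes. Without L43-5, the passing genes were Cacna2d2, Cacna1c and Cacna1g (3 of 8 tested, against 328 of 9309 genes). Without L46-8 they were Cacna2d2 and Ryr2 (2 of 9, against 388 of 9803). Without L49-3 they were Cacna2d2 and Cacna1d (2 of 9, against 291 of 10166). Nothing is read from these counts either.

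The question of whether these genes vary between embryos was not part of the choice of the list and was tested with the embryo term of the same model (edgeR, F test over 4 embryos). For Cacna2d2 this test still shares its residual spread with the contrast that selected it. Over all genes, 17 of 9744 (0.174%) differed between embryos at an adjusted p under 0.05 and 973 (9.99%) at an unadjusted p under 0.05. Of the 9 tested calcium genes, 2 passed after adjustment and 5 before it. With each embryo sampled by 1 left and 1 right library, differences between embryos and differences between dissections or library preparations cannot be told apart.

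Cacna2d2 (adjusted p = 0.0201, edgeR) and Slc8a1 (adjusted p = 0.0377, edgeR) differed between embryos and ranked 4 and 8 by p among the 9737 tested genes with a symbol. In both, the counts in the 2 libraries of L49-3 lay below all 6 others: 17.0 and 26.6 against 48.2 to 155 for Cacna2d2, and 17.0 and 29.9 against 50.8 to 162 for Slc8a1. The mean of the other 3 embryos was 4.15-fold that of L49-3 for Cacna2d2 and 4.66-fold for Slc8a1. Both calls rested on L49-3: without it 0 of 9 calcium genes, and 0 of 10166 genes in all, passed in edgeR, with 2 and 451 at an unadjusted p under 0.05, and the adjusted p was 0.845 for Cacna2d2 and for Slc8a1. In limma-voom 0 of 9 passed (5 at an unadjusted p under 0.05), against 4 of 9744 genes (957 unadjusted). The limma-voom adjusted p was 0.0925 for Cacna2d2 and 0.122 for Slc8a1. DESeq2 called 4 of 9, the other 2 being Ryr2 and Atp2a2, against 48 of 9744 genes. At an unadjusted p under 0.05 it had 5 of 9, against 383 of 9744.

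Ryr2, Atp2a2 and Cacna1d had unadjusted p-values under 0.05 in edgeR that did not survive adjustment over all genes (adjusted p = 0.108, 0.142 and 0.364). Counts of Ryr2 in L49-3 (48.0 and 76.4) lay below all others (115 to 212), as did those of Atp2a2 (873 and 896 against 1029.1 to 1609.4) and Cacnb2 (17.0 and 18.3 against 23.5 to 35.9). Both L49-3 libraries were thus lowest for 5 of 9 tested genes, against 9.45% of the 9737 genes, and highest for 0 of 9, against 7.83%. This embryo was singled out after its values had been seen. The median log2 difference of L49-3 from the other embryos was -0.80 over the 9 genes and -0.01 over all genes.

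The T-type genes were not lower in L49-3. Cacna1g was at 57.3 and 48.2 for L49-3 against 29.7 to 63.0 in the other libraries, with a mean in the others 0.854-fold that of L49-3 (adjusted p = 0.943, edgeR). Cacna1h, untested, was at 15.5 and 11.6 for L49-3 against 4.56 to 12.4. Cacna2d1 (1.26-fold higher in the others) and Cacna1c (1.35-fold) had values for L49-3 inside the range of the other 6 libraries, with adjusted p-values between embryos of 0.723 and 0.519 in edgeR. Whether the change of T-type and exchanger genes differs was not tested.

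Markers of cell types moved with the same embryo. The summed cardiomyocyte markers were 2.71-fold higher in the other 3 embryos than in L49-3. Of 18 such markers 17 had a lower mean in L49-3. In both of its libraries 5 were lower than in all others, against 9.45% of the 9737 tested genes with a symbol. The 5 include Tnni3, which was not tested, with a mean normalized read count of 7.94. Of the 14 tested markers 13 had an unadjusted embryo p under 0.05 in edgeR, against 9.99% of all genes. After adjustment 2 passed, Myh6 and Ldb3 (a Z-disc protein), against 0.174% of all genes. The 3 markers of the juxta-cardiac field, the progenitor zone at the border of the crescent, summed to 48.0 and 51.5 in L49-3 against 203 to 425 elsewhere, a 5.89-fold difference. Neural tube markers went the other way, with sums of 590 to 788 in L49-3 against 144 to 445, and endothelial markers were 1.43-fold higher in the other embryos. The markers of the second heart field differed little (0.97-fold), as did those of foregut endoderm (1.03-fold) and cranial neural crest (1.02-fold), with 1.27-fold for surface ectoderm and 0.855-fold for paraxial mesoderm. Primitive blood markers summed to at most 31.7 in any library. Relative to the cardiomyocyte marker sum, Slc8a1 ranged from 0.959% to 2.13% and Ryr2 from 2.45% to 4.94% over the 8 libraries. Cacna1d ranged from 0.695% to 1.52% and Cacna2d2 from 0.852% to 3.15%. Atp2a2 ranged from 18.4% to 89.8%, Cacna1c from 0.741% to 4.94% and Cacna1g from 0.411% to 5.89%. The highest value lay in the left library of L49-3 for Atp2a2, Ryr2, Cacna1c, Cacna1g, Cacna1h, Cacna2d1 and Cacnb2, but not for Slc8a1, Cacna1d and Cacna2d2. The part of tissue makeup in the embryo differences was not tested.

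**Figure D3:**
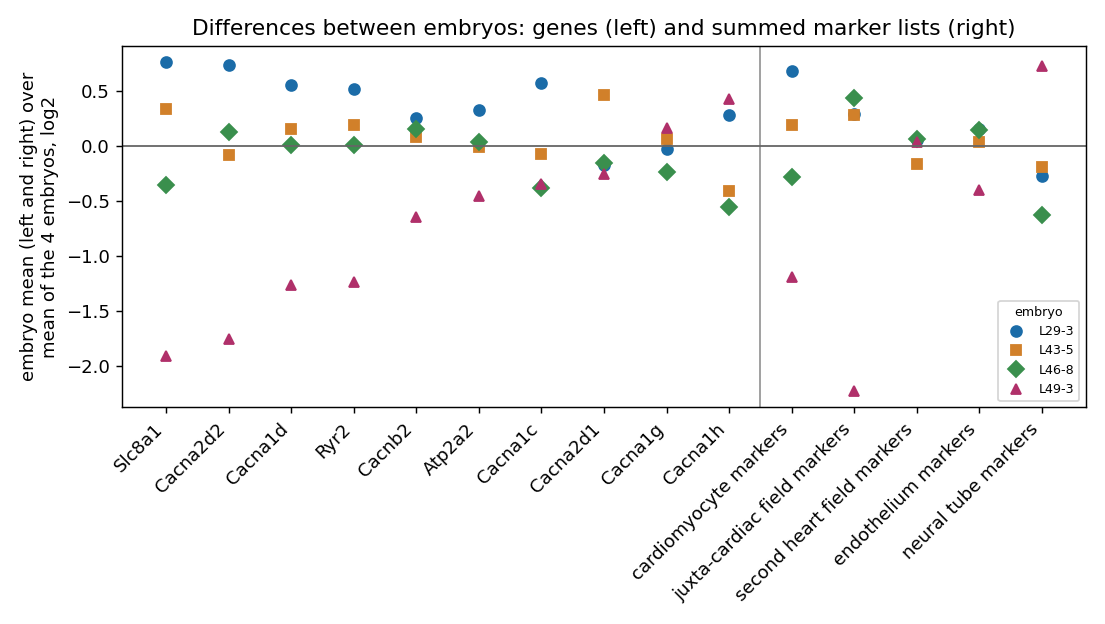
Mean of the left and right normalized read counts of each embryo, as log2 of its ratio to the mean of the 4 embryos, for the 10 genes (ordered by the difference of L49-3) and for 5 summed marker lists to the right of the grey line. L49-3 is lowest for Slc8a1, Cacna2d2, Cacna1d, Ryr2, Cacnb2, Atp2a2 and, by a small margin, Cacna2d1, as it is for cardiomyocyte, juxta-cardiac field and endothelial markers, and highest for Cacna1g, Cacna1h and neural tube markers.

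The genes with the most similar profiles over the 8 libraries were found by the root mean square difference of log2 CPM after centring each gene. For Cacna2d2 these were Klhl34 (0.353), Fam49a (0.355), Atp1b1 (0.358), Ldb3 (0.368) and Fbxo32 (0.373), where the profile of Cacna2d2 itself had a root mean square of 0.959. Atp1b1 is a subunit of the sodium-potassium pump, and Fbxo32 is a muscle ubiquitin ligase. For Slc8a1 they were Fbxo32 (0.28), Actc1 (0.298), Bves (0.302), Nebl (0.323) and Hspb7 (0.325), beside a root mean square of 1.05 for Slc8a1. Actc1, Nebl and Hspb7 belong to the contractile apparatus of heart muscle or its upkeep. Left and right libraries of an embryo are not independent points, and the low values of L49-3 are part of each of these profiles.

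To compare levels between genes, TMM-normalized CPM was divided by the length of the merged exons in kilobases. On this scale the mean level of Atp2a2 was 105 ± 22.6 (SD over 4 embryos), and that of the next gene, Cacna2d2, was 4.87 ± 2.73. The geometric mean over embryos of the ratio of Atp2a2 to Cacna2d2 was 25.1. Ryr2 (2.69 ± 1.13), Slc8a1 (2.47 ± 1.51) and Cacna1g (2.45 ± 0.283) followed. Below these lay Cacna1d (1.95 ± 0.849), Cacna1c (1.2 ± 0.406), Cacnb2 (1.1 ± 0.273), Cacna2d1 (0.855 ± 0.215) and Cacna1h (0.545 ± 0.18). Thus the store pump stood far above every channel gene, and the T-type gene Cacna1g had a higher mean than either L-type gene. Without L49-3 the means of Cacna1g and Cacna1d were nearly equal, at 2.35 and 2.33.

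Atp2a2 was above Cacna2d2, and Cacna2d2 above Ryr2, in 8 of 8 libraries, the latter with a geometric mean ratio over embryos of 1.68. For both steps the two-sided exact sign-flip permutation test over 4 embryos gave p = 0.12, the smallest it can give, so no step in this order could reach 0.05. The 7 lower steps held in 5 to 7 of 8 libraries, with exact permutation p-values from 0.25 to 0.875, which in this design could not have shown a separation. The mean log2 difference exceeded its SD over embryos only for Cacna1d over Cacna1c (0.62 ± 0.584), and was smaller than its SD for the other 6 of these steps. Taking the longest annotated transcript as the length moved Cacnb2 to 2.91, Ryr2 to 4.6, Cacna1c to 1.94 and Cacna2d1 to 1.43, so the lower order also depends on which transcripts are made.

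**Figure D4:**
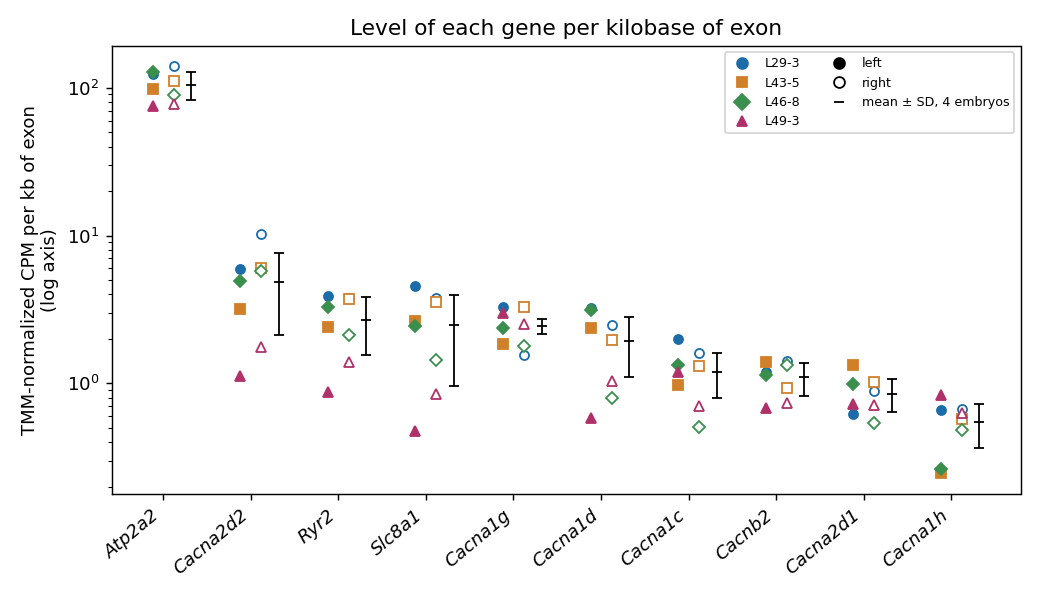
TMM-normalized CPM per kilobase of merged exon (log axis) of the 10 genes in the order of their means, in left (filled) and right (open) libraries of each embryo, with the mean ± SD of the 4 embryo means in black. Atp2a2 lies between 75.7 and 140 in every library, above every value of the other genes, the highest of which is 10.3 (Cacna2d2, L29-3 right).

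Among the 4 pore genes, Cacna1g made up 40.8 ± 8.78% of the summed level per kilobase (SD, n = 4 embryos), Cacna1d 31.0 ± 10.4%, Cacna1c 19.2 ± 2.72% and Cacna1h 9.03 ± 3.42%. The share of the L-type pair was 50.2 ± 11.5%, and ranged from 31.8% to 64.8% over the 8 libraries. It was lowest in the left library of L49-3, where Cacna1d was 10.4% of the pore level and Cacna1g 53.3%. Of the alpha2delta subunits, Cacna2d2 had the higher level per kilobase in every library, with a ratio to Cacna2d1 of 5.88 ± 3.78 and a range from 1.56 to 11.5.

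A wider list of 82 calcium-handling and excitability genes, of which 81 were in the table and 34 were tested, was read beside these genes. In the left-right comparison 1 of 34 passed the thresholds of 1.2-fold and p of at most 0.05, namely Camk2d, a calcium/calmodulin-dependent kinase of heart muscle, against the 3.05% of all genes. The log2 fold changes of the 34 genes lay between -0.29 and 0.41, with a median of 0.00 as for all genes. Camk2d had more reads on the left than on the right in all 4 embryos, with a left mean of 49.2 ± 15.8 (SD), a right mean of 37.3 ± 9.31 and a log2 fold change of 0.41 ± 0.18 (SE). It did not pass after adjustment over all genes in edgeR. The call was absent in DESeq2 and without L29-3, L43-5 or L46-8. Without L46-8 the genes past the thresholds were Hcn4 and Jph2 (2 of 36, against 388 of 9803 genes). Both were higher on the right (log2 fold changes of -0.58 and -0.47).

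Between embryos, 0 of the 34 passed after adjustment in edgeR, DESeq2 or limma-voom, and 7 in edgeR, 5 in DESeq2 and 8 in limma-voom had an unadjusted p under 0.05. In edgeR this was 20.6% of the 34, against 9.99% of all genes. Over all 9744 genes, 383 in DESeq2 and 957 in limma-voom had an unadjusted p under 0.05. Without L46-8, 3 of 36 tested genes of the wider list passed after adjustment in edgeR, against 237 of 9803 over all genes. They were Hcn4, Hrc and Kcnj5, a potassium channel of atrial and pacemaker cells. Hcn4, the pacemaker channel of the early heart, had embryo means from 134 in L29-3 to 23.3 in L49-3 (adjusted p = 0.158, edgeR), and Hrc, a calcium-binding protein of the sarcoplasmic reticulum, from 46.5 to 9.8 (adjusted p = 0.161, edgeR). Jph2, which holds the store close to the cell membrane, and Kcnh2, a repolarizing potassium channel, were also lower in L49-3, at 53.5 and 39.0 against means of 97.7 and 78.0 in the others. Gja1, a gap junction protein, and Cacng7, a channel-associated subunit, had higher values in L49-3, at 791 and 100 against 626 and 65.1. The adjusted p-values of these last 4 genes were 0.337, 0.352, 0.29 and 0.357 in edgeR.

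Some partners of the store had few reads and others many. Pln, the inhibitor of SERCA2, had a mean normalized read count of 2.23, Casq2, the calcium buffer of the store, 1.73, and Trdn, which anchors the release unit, 1.01, while Sln, another SERCA inhibitor, was at 0 in every library, and a 0 there leaves room for 3 counts per library. Hrc had a mean of 24.4, Jph2 of 86.6 and Asph, a gene whose products include the store protein junctin, of 209. Among the other isoforms, Ryr1 was at 9.99, Ryr3 at 1.21, Atp2a1 at 3.1 and Atp2a3 at 10.8. By contrast Itpr1, a receptor that releases calcium in many cell types, had a mean of 171 and Atp2b1, a calcium pump of the plasma membrane, 356. Levels between these genes are not compared here, since the counts are not divided by gene length.

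By role, 2 of 12 other L-type subunits were tested, 8 of 17 release channels and partners, 2 of 9 plasma membrane pumps and exchangers, 8 of 9 genes of store-operated entry and mitochondrial uptake, 10 of 12 calcium sensors and effectors, and 4 of 13 pacemaker, sodium, potassium and gap junction channels. Among 4 further T-type and neuronal pore genes and among 6 SERCA genes and regulators, of which 5 were in the table, 0 reached the filter. Camk2d was the sole gene past the left-right thresholds in any of these groups. The unadjusted embryo p-values under 0.05 fell in the pacemaker and gap junction group (3), the release group (2), the other L-type subunits (1) and the sensors (1, Camk2d).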

How the data were processed

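Poly-A RNA from 8 heart field libraries was measured by paired-end sequencing. The values deposited by the authors are raw read counts per gene. Per the paper's methods and the labels, reads were mapped to GRCm38 with HISAT2, duplicates were excluded, and featureCounts counted the rest; their versions, and whether counting used the strand, are not given in the sources used here. Removing duplicates lowers the counts of abundant genes most, and the reads of genes that overlap on opposite strands may be mixed.

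Symbols and exon lengths came from GENCODE vM21, which named 48144 of 48526 identifiers. Counts were fitted with edgeR 4.0.16 (R 4.3.3, quasi-likelihood F test, TMM factors) with terms for side and embryo, over genes with DESeq2-normalized counts of at least 20 in at least 4 libraries. The embryo block follows the labels, since both sides of an embryo share its name; within an embryo, the deviations of its libraries from their group means correlated at 0.161, 0.19, -0.014 and 0.439. Adjusted p-values are Benjamini-Hochberg values over all tested genes. Alternatives were DESeq2 1.42.0, limma-voom 3.58.1, other scalings and filters, no block, and each embryo left out. The scripts were tested on simulated data. Ratios within an embryo used CPM plus 0.5, and exact permutation tests flipped signs over embryos. A gene at 0 may hold up to 3 counts by counting error alone.

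All 10 genes are named. From the wider list, genes past the left-right thresholds and the 6 with the smallest embryo p were named, with the 5 profiles nearest to Cacna2d2 and to Slc8a1, and the marker genes with the highest means of the cardiomyocyte list; other genes are named for their role, after their values were seen. The genes, the lists and the tests were chosen with earlier results of these data known. With samples of 4 embryos, the p-values of the fits with the embryo block rest on the spread left after the terms for side and embryo.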

Additional observations from a re-analysis of the deposited data

How the results depend on the processing

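The left-right thresholds were passed by 687 of 23873 genes without a filter on low counts and by 59 of 9744 with DESeq2, against 297 of 9744. For the calcium genes the count was 2 of 10 without a filter. It was 1 to 3 with an embryo left out, against 291 to 388 over all genes with an embryo left out. Without the replicate block, the pairing of libraries by embryo, it was 0, and 233 over all genes. For the wider list it was 2 of 78 without a filter, 0 of 34 with DESeq2, 0 without the block and 0 to 2 with an embryo left out. All 97 alternative values of the calcium genes' left-right log2 fold changes differed from the reported ones by less than the SD between embryos. Leaving out an embryo can move a mean by only part of this SD, so the comparison is a weak check. The sign changed in some alternatives for Cacna1g, Cacnb2, Ryr2, Atp2a2 and Slc8a1. Between embryos, 641 of 23873 genes passed without a filter and 9 of 9482 with at least 10 counts in every library. DESeq2 called 48 and limma-voom 4 of 9744, and 0 to 237 passed with an embryo left out, against 17 of 9744. Of the calcium genes, 6 of 10 passed without a filter, 4 of 9 with DESeq2, 0 of 9 with limma-voom and 0 to 5 with an embryo left out, against 2 of 9. Of the wider list, 6 of 78 passed without a filter and 0 to 3 with an embryo left out, against 0 of 34. The cause of these changes was not tested, apart from the genes or embryos each alternative adds or removes. The libraries of L49-3 had the fewest counts, and how small a difference could be detected at counts near 20 was not tested.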
